A study of Mus musculus with 9 samples.

Results

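The 10 genes described here encode enzymes that build nucleotides from small precursors, and they were taken as the rows of the deposited gene counts whose symbol is Cad, Dhodh, Umps, Ppat, Gart, Paics, Impdh1, Impdh2, Rrm1 or Rrm2. All 10 were found among 17769 genes, and all 10 were among the 13608 genes with enough counts to be tested. RNA was measured with Smart-Seq2, which copies whole polyadenylated transcripts, in bone marrow cells of C57BL/6N mice sorted as MEP, the usual name of megakaryocyte-erythroid progenitors. The VF group carried SclCre with the JAK2 mutation V617F and was taken 12 weeks after tamoxifen. The E12 group carried SclCre with a JAK2 exon 12 mutation and was taken 6 weeks after tamoxifen. The control group is labelled WT and was taken 12 weeks after tamoxifen. The labels give 5 daily intraperitoneal tamoxifen injections for all 3 groups. Each group has 3 libraries, and the labels do not say whether they came from separate mice, so the p-values measure only the spread between these libraries. SclCre is a recombinase driven from regulatory DNA of Scl, a gene of blood stem and progenitor cells. The labels do not say whether the WT mice carried it, where the mutant alleles sit in the genome or which surface markers defined the sort.

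Cells make uridine monophosphate (UMP) on a pathway run by CAD, DHODH and UMPS, and inosine monophosphate (IMP), the parent of adenine and guanine nucleotides, on a longer pathway that includes PPAT, GART and PAICS. IMP dehydrogenases, encoded by Impdh1 and Impdh2, then direct IMP towards guanine nucleotides, and ribonucleotide reductase, built from RRM1 and RRM2, turns ribonucleotides into the deoxynucleotides used for DNA. Dividing progenitors in the marrow draw on these pathways for RNA and DNA, and cells that do not build purines or pyrimidines anew recover them by salvage.

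Promoter windows are shown for the 3 pairs of genes whose ratio is reported below, from 250 bases before to 50 bases after each start site, as RefSeq gives them on GRCm38.p6. Windows were found for 9 of the 10 genes. All sequences run 5′ to 3′ on the strand of the gene, and capitals mark CACGTG, the E-box bound by the Myc family, and CCAAT, the box bound by NF-Y, the second on either strand. Impdh2 lies at chr9:108560436-108565577 on the plus strand and its window at chr9:108560186-108560485. Impdh1 lies at chr6:29200436-29216364 on the minus strand and has start sites at 29216364 and 29212297, with windows at chr6:29216315-29216614 and chr6:29212248-29212547.
Impdh2: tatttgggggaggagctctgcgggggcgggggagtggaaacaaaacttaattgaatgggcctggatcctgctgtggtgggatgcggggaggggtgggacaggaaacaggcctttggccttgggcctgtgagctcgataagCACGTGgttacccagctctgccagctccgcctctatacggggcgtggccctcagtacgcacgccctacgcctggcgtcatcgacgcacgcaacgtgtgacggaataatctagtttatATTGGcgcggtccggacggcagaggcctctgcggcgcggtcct
Impdh1 upstream start: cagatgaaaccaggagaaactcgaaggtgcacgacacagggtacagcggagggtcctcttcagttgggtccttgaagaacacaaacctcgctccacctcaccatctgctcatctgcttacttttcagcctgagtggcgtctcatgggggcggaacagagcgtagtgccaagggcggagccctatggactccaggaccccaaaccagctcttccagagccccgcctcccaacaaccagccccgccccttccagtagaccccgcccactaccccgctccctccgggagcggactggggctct
Impdh1 downstream start: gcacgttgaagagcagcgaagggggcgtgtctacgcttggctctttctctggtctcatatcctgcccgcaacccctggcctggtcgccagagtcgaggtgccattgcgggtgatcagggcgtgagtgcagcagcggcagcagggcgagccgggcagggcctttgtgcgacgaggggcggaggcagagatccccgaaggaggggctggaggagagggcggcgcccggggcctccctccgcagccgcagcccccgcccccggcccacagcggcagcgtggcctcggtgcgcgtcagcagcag
Paics lies at chr5:76951302-76967509 on the plus strand and Ppat at chr5:76913249-76951578 on the minus strand, so the genes point away from each other and their spans share 277 bases. Their windows, chr5:76951052-76951351 for Paics and chr5:76951529-76951828 for Ppat, do not overlap.
Paics: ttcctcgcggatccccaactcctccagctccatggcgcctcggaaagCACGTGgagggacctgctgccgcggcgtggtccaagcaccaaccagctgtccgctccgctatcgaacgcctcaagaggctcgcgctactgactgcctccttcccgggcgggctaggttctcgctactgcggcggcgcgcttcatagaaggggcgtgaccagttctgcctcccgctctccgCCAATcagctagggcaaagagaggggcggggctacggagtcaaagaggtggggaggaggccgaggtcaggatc
Ppat: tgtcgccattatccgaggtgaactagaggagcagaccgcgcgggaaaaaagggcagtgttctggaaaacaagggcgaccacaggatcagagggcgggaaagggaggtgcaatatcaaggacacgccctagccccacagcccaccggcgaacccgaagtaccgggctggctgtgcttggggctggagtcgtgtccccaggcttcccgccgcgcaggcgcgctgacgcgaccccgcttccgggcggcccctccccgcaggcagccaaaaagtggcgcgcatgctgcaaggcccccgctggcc
Rrm1 lies at chr7:102441695-102469771 and Rrm2 at chr12:24708254-24714146, both on the plus strand, with windows at chr7:102441445-102441744 and chr12:24708004-24708303.
Rrm1: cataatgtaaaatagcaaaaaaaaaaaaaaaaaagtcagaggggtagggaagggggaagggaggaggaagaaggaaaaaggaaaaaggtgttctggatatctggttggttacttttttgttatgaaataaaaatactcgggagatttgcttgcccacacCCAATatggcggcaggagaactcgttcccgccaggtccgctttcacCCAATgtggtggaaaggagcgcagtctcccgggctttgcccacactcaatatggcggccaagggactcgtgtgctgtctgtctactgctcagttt
Rrm2: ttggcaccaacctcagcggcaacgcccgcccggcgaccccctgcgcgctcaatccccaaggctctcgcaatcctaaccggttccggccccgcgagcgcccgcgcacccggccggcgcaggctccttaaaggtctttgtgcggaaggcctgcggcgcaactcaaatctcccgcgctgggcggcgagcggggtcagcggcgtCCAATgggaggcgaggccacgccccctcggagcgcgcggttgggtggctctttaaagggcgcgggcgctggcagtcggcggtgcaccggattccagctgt
CACGTG was found in 2 of the 9 genes with a window, starting at position −203 from the start site of Paics and at −110 from that of Impdh2, against 7.15% of all 32851 windows in the table. CCAAT was found in 5 of the 9 genes, Gart, Paics, Impdh2, Rrm1 and Rrm2, against 37.4% of all windows. Neither motif was found in the windows of Ppat or Impdh1. Ppat held 2 matches to TTTNNCGC, a form of the E2F site, which 5.17% of all windows hold, and Paics held TTCNNNGAA, the STAT site, which 8.3% of all windows hold. These matches describe letters in a window and say nothing about binding.

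The libraries held 19256431 to 21331168 counts in VF, 20328414 to 23499914 in E12 and 33838681 to 39736096 in WT. The labels give the WT libraries facility numbers from another range than those of VF and E12 and do not say what this range marks, so in comparisons with WT the genotype cannot be told apart from it. Genes over 5 kb took 14.7% to 15.2% of counts in VF, 14.2% to 16.3% in E12 and 4.37% to 7.92% in WT. WT 50 stood apart, with 27.9% of its counts in genes under 1 kb, against 14.1% in WT 51 and 11.2% in WT 52, and a TMM scaling factor of 0.456, against 0.841 and 0.869. Hemoglobin genes took 3.37% of counts in E12 5, against 0.104% in E12 1 and 0.0786% in E12 2. The median log2 fold change of VF against WT was −1.77 for genes under 1 kb and 1.22 for genes over 5 kb, and that of E12 against WT was −1.84 for genes under 1 kb and 1.11 for genes over 5 kb. A further fit therefore removed, library by library, a smooth trend of the counts with gene length (a length offset), and its values are given beside the results that it changes. Marker genes of cell types, summed as counts scaled to a common library size (CPM), differed too. In VF erythroid markers summed to 1158 to 1770 CPM, megakaryocyte markers to 2458 to 3134, stem and progenitor markers to 1885 to 1888, neutrophil and monocyte markers to 7171 to 13130 and lymphoid markers to 563 to 725. In E12 the erythroid sum was 8546 to 22393 CPM, the megakaryocyte sum 453 to 547, the stem and progenitor sum 568 to 886, the neutrophil and monocyte sum 1667 to 2301 and the lymphoid sum 219 to 595. In WT the erythroid sum was 22864 to 39994 CPM, the megakaryocyte sum 60.1 to 175, the stem and progenitor sum 97.4 to 212, the neutrophil and monocyte sum 283 to 4350 and the lymphoid sum 399 to 4502. Of 12 erythroid markers 9 were called lower and 0 higher in VF against WT (edgeR; 0 were higher before adjustment, by DESeq2 or by voom). In E12 against WT 4 were lower and 2 higher, and 2 lower and 3 higher with the length offset. The higher ones were Tfrc, the transferrin receptor (log2 3.36, adjusted p = 0.00065), and Slc4a1, the red cell anion exchanger (log2 6.35, adjusted p = 0.018), both named after their values were seen. Slc4a1 averaged 147 ± 246 CPM in E12 and 1.79 ± 0.221 CPM in WT (SD, n = 3 each). Its SD in E12 was above its mean, so its level was very uneven among the E12 libraries. Of 10 megakaryocyte markers 10 were called higher in VF and 7 in E12, the second count being 9 with the length offset. Among genes that define the labelled cells, Gata1 averaged 194 ± 19.2 CPM in VF, 434 ± 51.5 CPM in E12 and 761 ± 309 CPM in WT (SD, n = 3 each), while Cd34, low in the usual MEP gate, averaged 659.6 ± 23.2 CPM in VF, 211 ± 85.2 CPM in E12 and 3.63 ± 1.17 CPM in WT. Kit, of the same list, ran opposite to Gata1, at 545 ± 42.4 CPM in VF, 315 ± 39.1 CPM in E12 and 134 ± 65.6 CPM in WT. Of the 7 genes in that list, 4 were called higher and 2 lower in VF against WT, and 2 higher and 1 lower in E12. The list holds Gata1 as well as Cd34, so these counts have no single direction. Beside these and the marker counts above, 27.7% of all genes were called higher and 20.9% lower in VF, and 23.9% higher and 18.1% lower in E12. The length offset called 5 higher and 2 lower in VF and 2 higher and 0 lower in E12. Over all genes it called 26.5% higher and 12.1% lower in VF, and 20.8% higher and 6.44% lower in E12. Itgb3, Procr and Mecom had no count in any WT library. The part of these markers in the results below was not tested, and in sorted bulk cells fewer cells of a type and less RNA per cell cannot be told apart.

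The 10 genes did not move as a block. In VF against WT, 5 fell (Cad, Dhodh, Umps, Impdh2 and Rrm2), Impdh1 rose, and 4 were not called, by edgeR's quasi-likelihood test at a Benjamini-Hochberg adjusted p under 0.05 over all 13608 genes. Over all tested genes 20.9% were called lower and 27.7% higher in the same comparison. In E12 against WT, 3 fell (Dhodh, Umps and Impdh2), 2 rose (Cad and Impdh1), and 5 were not called, where 18.1% of all genes were called lower and 23.9% higher. The median log2 fold change of the 10 genes was −0.60 in VF and 0.45 in E12 against WT, and that of all tested genes was 0.36 in both. With the length offset 3 of the 10 genes stayed lower and 1 higher in VF against WT, where the offset called 12.1% of all genes lower and 26.5% higher. In E12 against WT the offset left 2 lower and 1 higher, where 6.44% of all genes were called lower and 20.8% higher. On the log2 levels that the authors deposited the split was another one. There limma called 2 of the 10 lower and 3 higher in VF, where it called 24.3% of all genes lower and 25.5% higher, and 1 lower and 6 higher in E12, where it called 20.5% of all genes lower and 21.1% higher. Leaving out a library gave 4 to 8 calls in VF against WT, 4 without VF 1 or VF 3 and 8 without WT 50, and 3 to 6 in E12 against WT, 3 without E12 2 or E12 5. Without both WT 50 and E12 5, 7 were called in VF against WT and 4 in E12 against WT. Calls over all genes moved too. In VF against WT they were 8382 of 13984 without WT 50, 4953 of 13905 without VF 1 and 4753 of 13892 without VF 3. With all libraries they were 6612 of 13608. In E12 against WT they were 3612 of 13963 without E12 2 and 3969 of 13930 without E12 5, against 5717 of 13608. Without WT 50 and E12 5 they were 8282 of 13874 in VF and 6690 of 13874 in E12. Both comparisons use the same 3 WT libraries, and E12 also differs from WT in time after tamoxifen, which cannot be told apart from genotype.

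**Figure D1:**
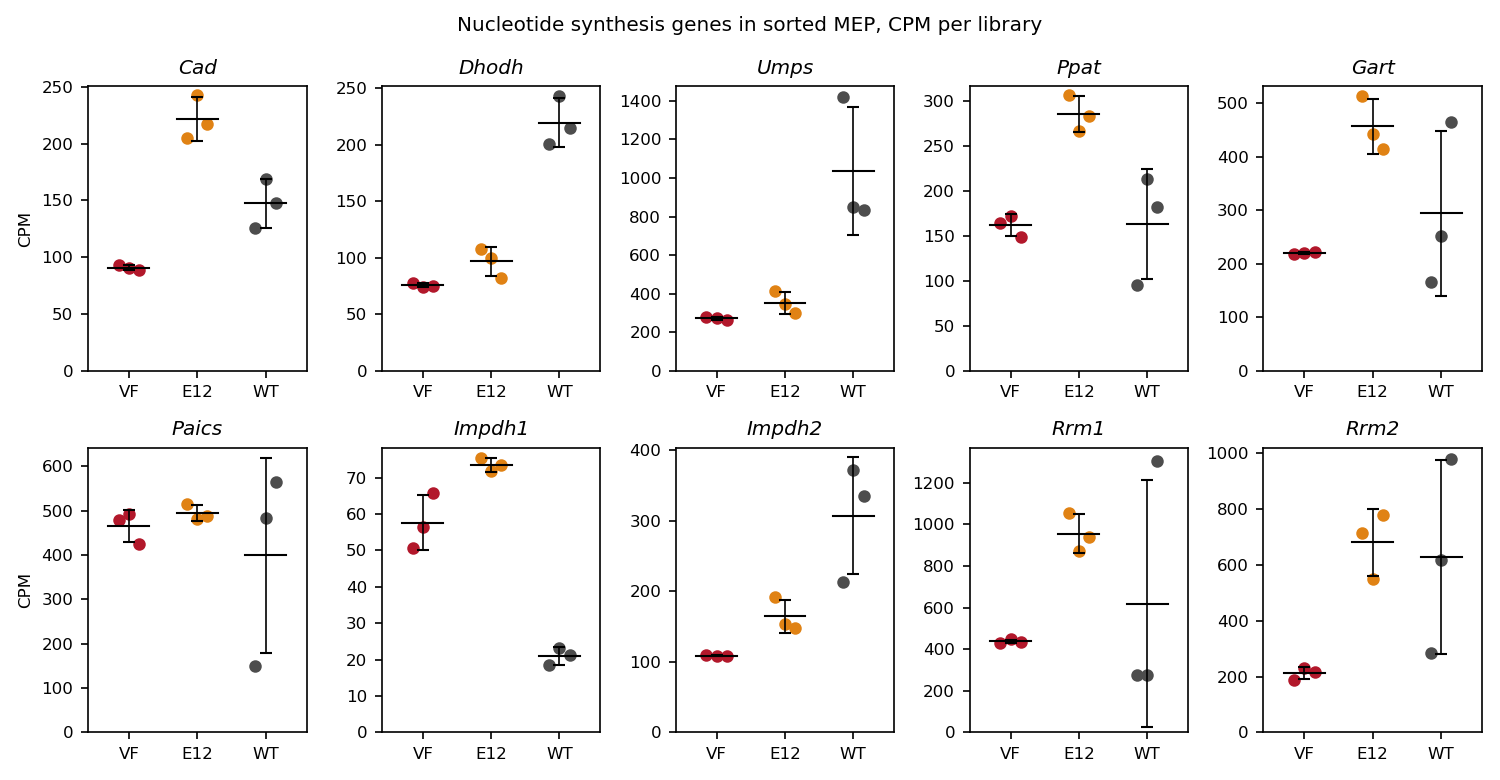
CPM of the 10 genes in each library. Each dot is a library of VF, E12 or WT, the long bar is the group mean and the whiskers are 1 SD of 3 libraries. Dhodh, Umps and Impdh2 were higher in every WT library than in any VF or E12 library, Impdh1 was lower in every WT library, and Rrm1, Paics, Rrm2 and Gart spread widely among the WT libraries. The share of all genes set apart from WT in this way was not counted, so the gaps from WT described below have no background to stand against.

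In the pyrimidine pathway, the later enzymes fell in both mutant groups and Cad, at its head, did not follow them in E12. Dhodh, the mitochondrial enzyme that oxidizes dihydroorotate to orotate, had 77.8, 74.4 and 75.4 CPM in VF and 108, 100.3 and 82.4 CPM in E12, against 201, 244 and 215 CPM in WT. Every WT library lay above every mutant library. Dhodh was 2.89-fold lower in VF (log2 −1.53, SE 0.21, adjusted p = 0.00083) and 2.27-fold lower in E12 (log2 −1.18, SE 0.21, adjusted p = 0.0039). Both calls held in all 20 alternatives tried for each, with log2 values from −1.82 to −1.0 in VF and from −1.48 to −0.73 in E12.

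Umps, which converts orotate to UMP, had 279.5, 275 and 261.5 CPM in VF and 413, 348 and 299 CPM in E12, against 1418, 849 and 836 CPM in WT. The groups did not overlap, and WT 50 was far above WT 51 and WT 52. Umps was 3.8-fold lower in VF (log2 −1.93, SE 0.30, adjusted p = 0.0013) and 2.93-fold lower in E12 (log2 −1.55, SE 0.30, adjusted p = 0.0051). On the log2 levels that the authors deposited, the differences were −0.49 in VF and −0.36 in E12 and neither was called. Umps shares 213 of its 3484 exonic bases with an antisense gene, Gm15829. Reads in that stretch cannot be told apart, since no source used here states that strand was counted.

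Cad, the fused enzyme of the first steps of the pathway, had 93.0, 90.9 and 88.7 CPM in VF and 205, 243 and 217 CPM in E12, against 126, 169 and 148 CPM in WT. VF libraries were the lowest and E12 libraries the highest, with WT between them and no overlap among the 3 groups. Cad fell in VF (log2 −0.70, SE 0.21, adjusted p = 0.023) and rose in E12 (log2 0.59, SE 0.21, adjusted p = 0.049). The fall in VF was −1.40 with the length offset (adjusted p = 0.0014) and was not called without VF 1, VF 2 or VF 3 (adjusted p from 0.078 to 0.092), in the fit of VF and WT alone (adjusted p = 0.061) or on the deposited levels (log2 −0.21, adjusted p = 0.34). The rise in E12 rests on the setting: it was 0.06 with the length offset (adjusted p = 0.87), and leaving out any of the 9 libraries ended the call (adjusted p from 0.08 to 0.2), while on the deposited levels it was 1.09 (adjusted p = 0.0017).

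In the purine pathway, Ppat, Gart and Paics were not called in either comparison with WT. Ppat encodes the amidotransferase that commits the cell to purine synthesis, and had 165, 172 and 149 CPM in VF and 306, 266 and 283 CPM in E12, against 95.6, 213 and 182 CPM in WT. E12 lay above both other groups, while VF lay within the range of WT. The log2 fold change of Ppat was −0.01 in VF (SE 0.30, adjusted p = 0.98) and 0.80 in E12 (SE 0.30, adjusted p = 0.059). It was called in VF without WT 50 (log2 −0.42, adjusted p = 0.044) and in E12 without WT 51 (log2 0.90, adjusted p = 0.029), and on the levels the authors deposited it was higher in VF, at 0.72 (limma, adjusted p = 0.03), and in E12, at 1.41 (adjusted p = 0.0021).

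Gart, an enzyme with several activities in the middle of the pathway, had 219, 219.96 and 222 CPM in VF and 514, 442 and 415 CPM in E12, against 166, 252 and 465 CPM in WT. The WT libraries spanned both mutant groups apart from E12 1. Gart changed by −0.42 in VF (SE 0.36, adjusted p = 0.36) and by 0.63 in E12 (SE 0.36, adjusted p = 0.18) on the log2 scale. Without WT 50 it was called lower in VF (log2 −0.80, adjusted p = 0.0069), and without WT 52 it was called higher in E12 (log2 0.86, adjusted p = 0.015), as it was on the deposited levels (log2 1.52, adjusted p = 0.0067). Gart shares 676 of its 3988 exonic bases with the antisense gene Gm15964, and reads in that stretch cannot be told apart.

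Paics, which carries out the following carboxylation and ligation, had 479.6, 492 and 424 CPM in VF and 516, 481 and 488 CPM in E12, against 150.1, 484 and 564.5 CPM in WT. The mutant libraries were alike, and WT 50 stood far below the other WT libraries. The log2 fold change was 0.22 in VF (SE 0.43, adjusted p = 0.69) and 0.31 in E12 (SE 0.43, adjusted p = 0.59). Without WT 50 it turned to −0.29 in VF (adjusted p = 0.07) and −0.21 in E12 (adjusted p = 0.2). On the deposited levels it was called higher in VF, at 1.39 (adjusted p = 0.022), and in E12, at 1.33 (adjusted p = 0.031). Exons of Paics and Ppat share 272 bases, so that reads there could be split between them.

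The ratio of Paics to Ppat within a library, as counts per kb of gene length, does not depend on library scaling. It was 4.91, 4.81 and 4.81 in VF, 2.84, 3.04 and 2.90 in E12 and 2.65, 3.84 and 5.23 in WT. VF and E12 were each tight and apart from each other, while WT covered the range of both. The log2 ratio averaged 1.55 ± 0.05 in E12 and 2.28 ± 0.02 in VF (SD, n = 3 each), a difference of −0.73, and the exact permutation test gave a two-sided p of 0.1, the smallest that 3 libraries against 3 can give. Adjusted over the 9 ratio tests this was 0.18, and with the length offset the difference was −0.77. Against WT the difference was 0.37 in VF (exact p = 0.4) and −0.36 in E12 (exact p = 0.4), and 1.08 (exact p = 0.1) and 0.30 (exact p = 0.4) with the length offset, so that the sign turned in E12.

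**Figure D2:**
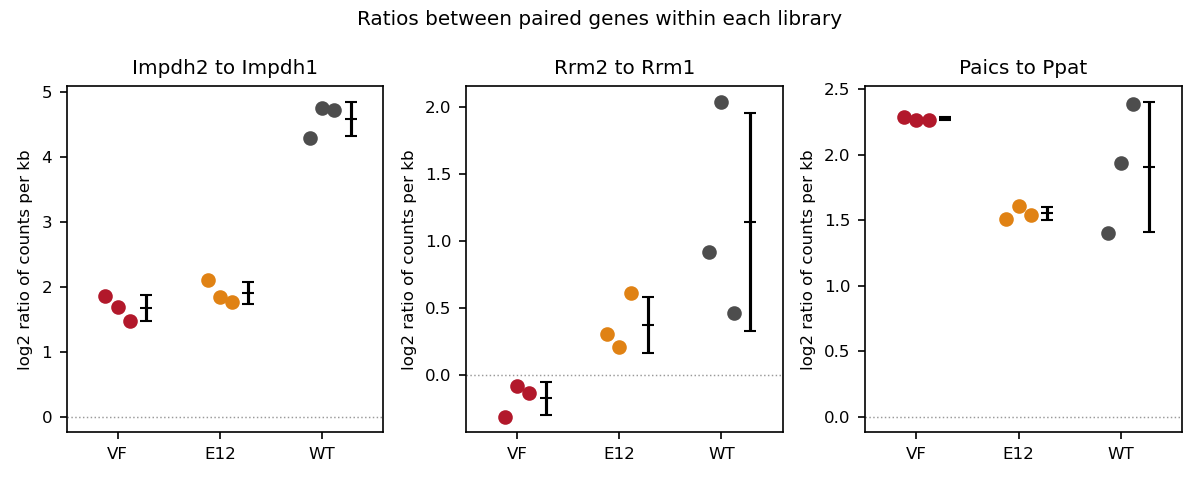
Log2 ratio of counts per kb between paired genes within each library, for Impdh2 to Impdh1, Rrm2 to Rrm1 and Paics to Ppat. Dots are libraries of VF, E12 and WT, the bars beside them show the mean and 1 SD of 3 libraries, and the dotted line marks equal levels. The Impdh2 to Impdh1 ratio averaged 1.67 in VF and 1.90 in E12, against 4.59 in WT.

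Without the length offset the IMP dehydrogenases were called in opposite directions in both mutant groups, and with it only the rise of Impdh1 was called. Impdh1, the isoform usually expressed at a low level in most tissues, had 50.8, 56.3 and 65.7 CPM in VF and 75.4, 71.8 and 73.3 CPM in E12, against 18.4, 23.2 and 21.3 CPM in WT. Every mutant library lay above every WT library. Impdh1 rose 2.75-fold in VF (log2 1.46, SE 0.21, adjusted p = 0.00094) and 3.51-fold in E12 (log2 1.81, SE 0.21, adjusted p = 0.00088), and both calls held in all 20 alternatives tried for each, with log2 values from 1.10 to 1.55 in VF and from 1.42 to 1.85 in E12.

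Impdh2, the isoform known to be high in proliferating cells, had 109.8, 108 and 108 CPM in VF and 192, 153 and 149 CPM in E12, against 214, 372 and 336 CPM in WT. The groups did not overlap, and WT 50 was nearest to the mutant libraries. Impdh2 was 2.82-fold lower in VF (log2 −1.5, SE 0.27, adjusted p = 0.0024) and 1.87-fold lower in E12 (log2 −0.90, SE 0.26, adjusted p = 0.023). With the length offset the fold change was −0.58 in VF (adjusted p = 0.25) and 0.05 in E12 (adjusted p = 0.94), so that neither was called. The E12 call was also lost without E12 2 (adjusted p = 0.088), without E12 5 (adjusted p = 0.086), in the fit of E12 and WT alone (adjusted p = 0.096) and on the deposited levels (log2 −0.23, adjusted p = 0.51). Impdh2 has a close pseudogene, so its counts are uncertain where reads were shared, and 48 of its exonic bases also belong to Ndufaf3 on the other strand.

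Per kb of gene length, Impdh2 was 3.63, 3.24 and 2.76 times as high as Impdh1 in VF and 4.27, 3.59 and 3.4 times as high in E12, against 19.5, 27.0 and 26.5 times in WT. The ratio was above 1 in every library and its WT values lay far from those of either mutant group. The log2 ratio averaged 1.67 ± 0.20 in VF and 1.90 ± 0.17 in E12, against 4.59 ± 0.26 in WT (SD, n = 3 each). The differences of −2.92 for VF and −2.69 for E12 each gave an exact permutation p of 0.1, the smallest possible (0.18 adjusted over the 9 ratio tests). They stayed between −3.07 and −2.61 with each library left out in turn, and were −1.83 for VF and −1.65 for E12 on the levels the authors deposited. These genes differ in length, and the length offset made the differences −1.90 for VF and −1.64 for E12. With the length offset, as given above, Impdh2 was not called while Impdh1 stayed higher, at 1.5 in VF (adjusted p = 6e-04) and 1.85 in E12 (adjusted p = 0.00069).

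**Figure D3:**
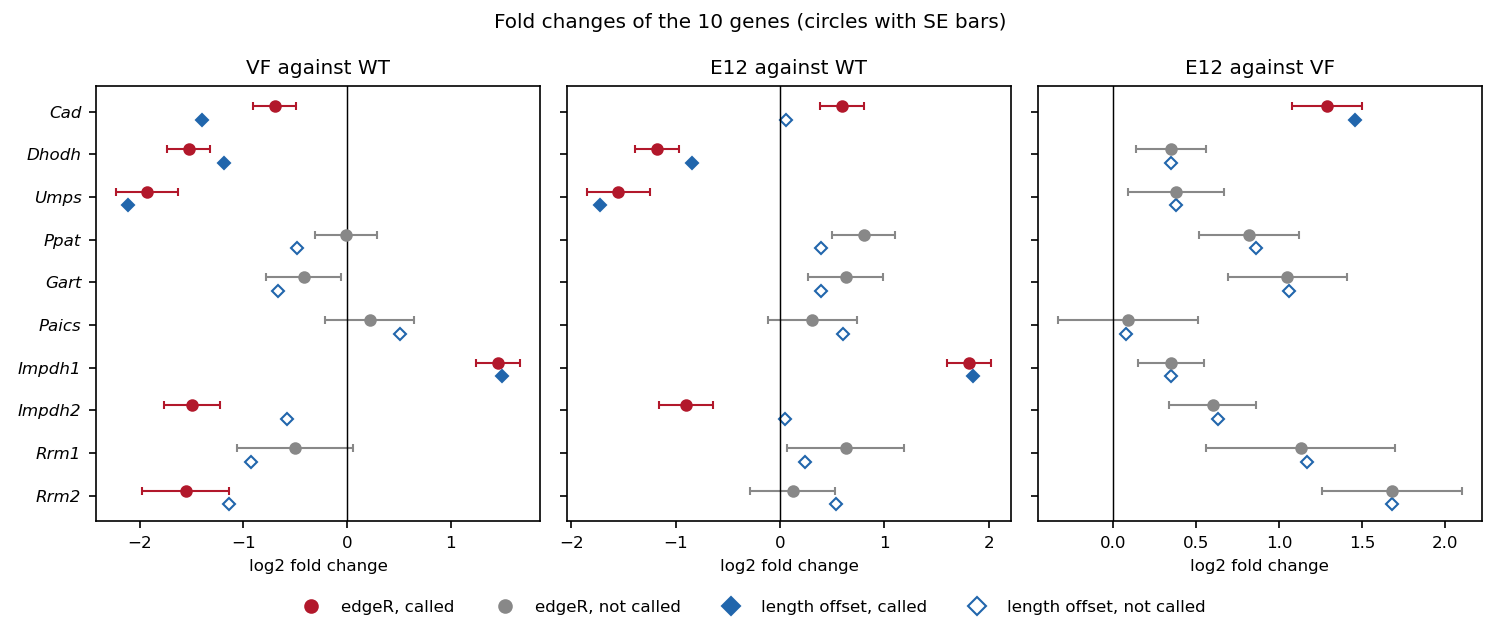
Log2 fold changes of the 10 genes in the 3 comparisons. Circles are the edgeR values with bars of 1 SE, in red where the adjusted p was under 0.05 and in grey otherwise, and diamonds below them are the values with the length offset, filled where called. Dhodh, Umps and Impdh1 were called by both fits against WT, while Impdh2 moved to −0.58 in VF and 0.05 in E12 with the offset.

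Of the ribonucleotide reductase genes, only Rrm2 in VF was called against WT, and both subunits were at higher levels in every E12 library than in any VF library. Rrm2, the small subunit that carries the radical and is known to rise in S phase, had 189, 231 and 217 CPM in VF and 715, 549 and 781 CPM in E12, against 285, 619 and 981 CPM in WT. VF libraries were all below the lowest WT library, and E12 libraries lay within the WT range. Rrm2 was 2.96-fold lower in VF (log2 −1.56, SE 0.42, adjusted p = 0.014) and changed by 0.12 in E12 (SE 0.41, adjusted p = 0.84), a sign that turned to −0.03 with RLE scaling and to −0.34 without WT 50. The fall in VF was not called with the length offset (log2 −1.14, adjusted p = 0.058), without VF 1 (adjusted p = 0.058), without VF 3 (adjusted p = 0.051) or on the deposited levels (log2 −0.32, adjusted p = 0.59).

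Rrm1, the large subunit, had 431, 447 and 434 CPM in VF and 1056, 870.4 and 938 CPM in E12, against 276, 276 and 1306 CPM in WT. WT 52 stood far above the other WT libraries, with a highest to lowest ratio of 4.73 in WT, and the WT range covered both mutant groups. Rrm1 was not called in VF (log2 −0.50, SE 0.56, adjusted p = 0.48) or in E12 (log2 0.63, SE 0.56, adjusted p = 0.40). Without WT 52 it was 0.38 in VF (adjusted p = 0.16) and was called higher in E12, at 1.51 (adjusted p = 0.0013). On the deposited levels it was 0.98 in VF (adjusted p = 0.17) and was called higher in E12, at 1.89 (adjusted p = 0.024).

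Rrm2 stood at 0.806, 0.949 and 0.916 times Rrm1 per kb in VF and at 1.24, 1.16 and 1.52 times in E12, against 1.89, 4.12 and 1.38 times in WT. The small subunit was thus below the large one in the 3 VF libraries and above it in the other 6. The log2 ratio averaged −0.17 ± 0.12 in VF, 0.38 ± 0.21 in E12 and 1.14 ± 0.81 in WT (SD, n = 3 each). VF against WT differed by −1.31 (exact permutation p = 0.1), E12 against WT by −0.76 (exact p = 0.2, with overlap) and E12 against VF by 0.55 (exact p = 0.1), where 0.1 is the smallest p possible and corresponds to 0.18 after adjustment over 9 tests. These differences, with the length offset, were −0.43 for VF against WT (exact p = 0.3), 0.07 for E12 against WT (exact p = 0.8) and 0.50 for E12 against VF (exact p = 0.1), so that the shift in VF against WT was over 3 times smaller and that in E12 against WT turned sign.

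Genes of the DNA replication machinery gave a background for the reductase. Of 21 such genes, 10 were called lower and 0 higher in VF against WT (edgeR; unadjusted, 0 were higher at p under 0.05, and DESeq2 and voom also called 0), with a median log2 fold change of −1.01, where 20.9% of all genes were lower and 27.7% higher. On the deposited levels limma called 7 lower and 4 higher in VF and 6 lower and 6 higher in E12. There it called 24.3% of all genes lower and 25.5% higher in VF, and 20.5% lower and 21.1% higher in E12. The members with the smallest p were Rfc4, a clamp loader subunit (log2 −2.95, adjusted p = 0.00037), Pcna, the sliding clamp (log2 −2.23, adjusted p = 0.00098), and Gins4, of the replicative helicase (log2 −2.44, adjusted p = 0.0025). In E12 against WT 7 were called lower and 1 higher, with a median of −0.29, where 18.1% of all genes were lower and 23.9% higher. Rfc4 was at −2.07 (adjusted p = 0.0022), Pcna at −1.78 (adjusted p = 0.0039) and Gins4 at −2.15 (adjusted p = 0.0061), and the higher one was Mcm4, a helicase subunit (log2 1.47, adjusted p = 0.05 after rounding, named after its values were seen). Of the 21, the offset called 9 lower and 0 higher in VF and 3 lower and 0 higher in E12. Over all genes it called 12.1% lower and 26.5% higher in VF, and 6.44% lower and 20.8% higher in E12. With the offset the E12 values of Rfc4 (−0.47, adjusted p = 0.19), Pcna (−0.20, adjusted p = 0.5) and Mcm4 (1.16, adjusted p = 0.12) were not called. The offset medians were −0.64 in VF and −0.13 in E12. In VF the offset made Rfc4 −1.40 (adjusted p = 0.003), Pcna −0.70 (adjusted p = 0.027) and Gins4 −0.87 (adjusted p = 0.0027). Gins4 in E12 became −0.53 (adjusted p = 0.032). In E12 against VF 0 of the 21 were called by edgeR, 4 were higher before adjustment at p under 0.05, DESeq2 called 2 higher, voom 1, limma on the deposited levels 3 and the length offset 1, and the median was 0.45. Of the helicase subunits Mcm2 to Mcm7 none was called in VF.

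On the log2 CPM scale, Rrm2 lay above the mean of these 21 genes by 0.41, 0.63 and 0.64 in VF and by 1.71, 1.51 and 1.97 in E12, against 0.40, 1.26 and 1.60 in WT. Rrm1 lay above it by 1.59, 1.58 and 1.64 in VF and by 2.27, 2.17 and 2.24 in E12, against 0.36, 0.09 and 2.01 in WT. Both subunits stood further above the replication genes in each E12 library than in any VF library. The share of all genes set apart in this way was not counted. For Rrm2 the WT libraries ran from 0.40, below every VF library, to 1.60, within the E12 range. For Rrm1 every WT library lay below every E12 library, with WT libraries on both sides of VF.

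**Figure D4:**
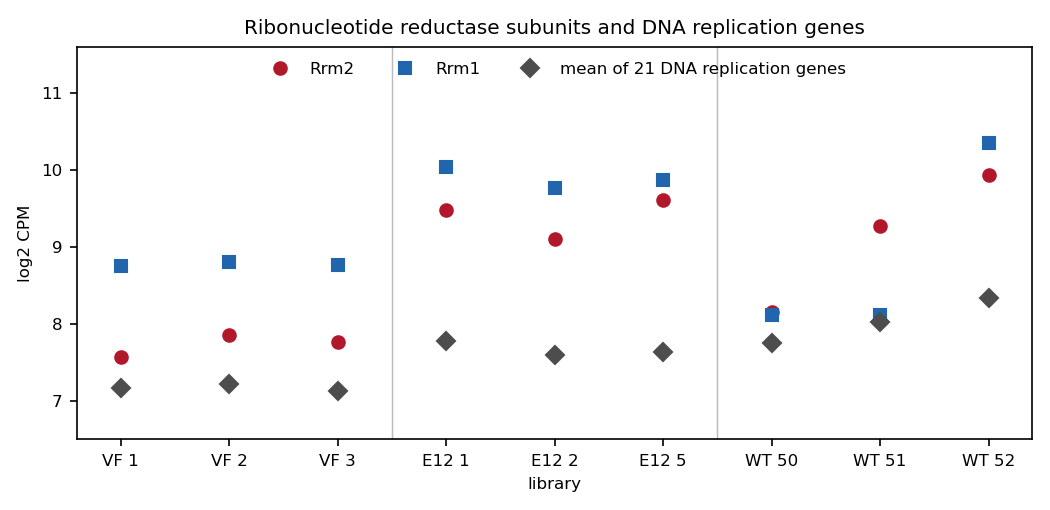
Log2 CPM of Rrm2, Rrm1 and the mean of 21 DNA replication genes in each of the 9 libraries, VF at the left, E12 in the middle and WT at the right. In E12 both subunits lie 1.51 to 2.27 above the replication mean, and in WT 50 and WT 51 Rrm1 lies 0.36 and 0.09 above it.

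E12 and VF were also set against each other directly. In the fit of all 9 libraries 1 of the 10 genes was called, where 2.19% of all genes were called higher and 1.02% lower in E12 than in VF. This gene was Cad, with 222 ± 19.4 CPM in E12 and 90.9 ± 2.17 CPM in VF (SD, n = 3 each; 2.44-fold higher, log2 1.29, SE 0.21, adjusted p = 0.018). The call was lost on leaving out any of the VF or E12 libraries (adjusted p from 0.08 to 0.14). Those fits called few genes at all, from 19 of 13892 without VF 3 to 114 of 13963 without E12 2, against 437 of 13608 with all libraries. None of the 10 genes was called lower, nor before adjustment at p under 0.05 (0 of 10), by DESeq2 (0) or by voom (0), whereas 5 were higher before adjustment, 4 by DESeq2 and 2 by voom. The length offset called 1 of the 10 higher, where it called 4.08% of all genes higher and 2.32% lower, and limma on the deposited levels called 1 higher, against 7.15% of all genes higher and 5.96% lower. Rrm2 averaged 682 ± 119.5 CPM in E12 and 212 ± 21.2 CPM in VF (log2 1.68, SE 0.42, adjusted p = 0.068), and Gart averaged 457 ± 51.2 CPM in E12 and 220.2 ± 1.57 CPM in VF (log2 1.05, SE 0.36, adjusted p = 0.16). In 9 of the 10 genes every E12 library lay above every VF library, the exception being Paics (log2 0.09, SE 0.42, adjusted p = 0.95). The same held for 28.2% of all tested genes, while in 31.3% every E12 library lay below every VF library.

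The shared estimate of spread in this fit includes the WT libraries, which varied more than the others. In a fit of the 6 E12 and VF libraries alone, 9 of the 10 genes were called higher in E12 and 0 lower, but that fit also called 25.4% of all genes higher and 22.6% lower. Log2 fold changes there were 1.72 for Rrm2 (adjusted p = 7.5e-05), 1.32 for Cad (4.3e-05), 1.16 for Rrm1 (4.5e-05), 1.08 for Gart (6.6e-05) and 0.85 for Ppat (0.00017). Those of Impdh2 (0.63, adjusted p = 0.00095), Umps (0.41, 0.015), Impdh1 (0.39, 0.022) and Dhodh (0.38, 0.014) were smaller, and Paics was not called (0.12, adjusted p = 0.27). Without WT 50 the fit of the remaining libraries called 5 of the 10 genes, and without WT 52 it called 4. Over all genes these fits called 3290 of 13984 without WT 50 and 1244 of 13990 without WT 52, against 437 of 13608 with all libraries. Time after tamoxifen, 6 weeks in E12 and 12 weeks in VF, cannot be told apart from genotype here, and erythroid markers were higher in E12 (10 of 12 called), a shift whose part was not tested.

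Levels per kb of gene length, as CPM per kb, ordered the 10 genes differently in each group. In VF Paics led at 196 ± 15.1 CPM per kb, followed by Rrm1 at 109 ± 2.10, Rrm2 at 97.5 ± 9.72 and Umps at 84.5 ± 2.90, with Cad last at 12.7 ± 0.304 (SD, n = 3 each). Only Impdh2 and Gart, at 66.9 ± 0.588 and 66.2 ± 0.473, were neighbours whose libraries overlapped in VF. In E12 Rrm2 led at 313 ± 54.8 CPM per kb and overlapped with Rrm1 at 239 ± 23.5, with Paics next at 208 ± 7.90, and Impdh1 was last at 26.9 ± 0.672. Gart overlapped with Umps and Umps with Impdh2 there. In WT Umps led at 321 ± 103.3 CPM per kb, ahead of Rrm2 at 288 ± 159.8, and from Umps down to Ppat each gene overlapped with the next. Cad at 20.6 ± 3.0 and Impdh1 at 7.67 ± 0.882 were last in WT and stood apart from their neighbours. The share of counts from long genes was lower in WT, as given above, which also enters this order.

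The counts for other genes of the nucleotide pathways stand beside the shares of all genes given above, 20.9% lower and 27.7% higher in VF and 18.1% lower and 23.9% higher in E12 against WT, and with the length offset 12.1% and 26.5% in VF and 6.44% and 20.8% in E12. Of 5 other genes of purine ring synthesis, 3 were called lower and 1 higher in VF and 1 lower and 1 higher in E12 against WT, and the length offset called 2 lower in VF. Prps2, a synthetase of the ribose phosphate donor, rose, with 76.4 ± 4.01 CPM in VF and 68.4 ± 7.22 CPM in E12, against 33.8 ± 2.83 CPM in WT (log2 1.18, adjusted p = 0.0018 in VF and 1.02, adjusted p = 0.0052 in E12). Its paralog Prps1 fell in VF (log2 −1.43, adjusted p = 0.023, and −0.82, adjusted p = 0.17 with the length offset), and Pfas, which acts between GART's steps, fell in both (log2 −1.39, adjusted p = 0.003 in VF and −0.79, adjusted p = 0.035 in E12). Of 10 genes of the AMP and GMP branches and purine kinases, 2 were lower and 4 higher in VF, and 3 were lower and 0 higher in E12 (edgeR; 2 were higher before adjustment, 2 by DESeq2 and 2 by voom). The length offset called 2 lower and 5 higher in VF, and 1 lower and 1 higher in E12. Guanylate kinase Guk1 fell, with log2 fold changes of −2.74 in VF (adjusted p = 0.0018) and −2.04 in E12 (adjusted p = 0.0077), which the length offset made −0.89 in VF (adjusted p = 0.003) and −0.13 in E12 (adjusted p = 0.57). Adssl1, an adenylosuccinate synthetase, was higher in VF (log2 4.31, adjusted p = 0.007), and Gmpr2, a GMP reductase, was lower in E12 (log2 −0.79, adjusted p = 0.042), a sign that turned with the length offset (log2 0.43, adjusted p = 0.12).

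The counts for purine salvage depended on the length offset. Of 11 genes of purine salvage and breakdown, 7 were lower and 2 higher in VF and 6 lower and 1 higher in E12, with median log2 fold changes of −1.76 in VF and −1.01 in E12. With the length offset 4 were lower and 2 higher in VF and 2 lower and 1 higher in E12, and the medians were −0.57 in VF and 0.12 in E12, so that the E12 median changed sign. Pnp, purine nucleoside phosphorylase, had 132 ± 3.89 CPM in VF and 287 ± 33.4 CPM in E12, against 1040.1 ± 537 CPM in WT (log2 −2.98, adjusted p = 0.00065 in VF and −1.86, adjusted p = 0.0057 in E12). Hprt, which recovers hypoxanthine and guanine, had 152 ± 2.00 CPM in VF and 237 ± 26.2 CPM in E12, against 578 ± 144 CPM in WT (log2 −1.93, adjusted p = 0.00081 in VF and −1.29, adjusted p = 0.006 in E12), and the length offset ended both calls (−0.57, adjusted p = 0.094 in VF and 0.12, adjusted p = 0.76 in E12). Gda, guanine deaminase, rose in both (log2 2.87, adjusted p = 0.0011 in VF and 3.07, adjusted p = 0.0018 in E12). Ampd3, an AMP deaminase of red cells, was higher in E12 than in VF, at 57.4 ± 12.8 CPM in E12 and 8.37 ± 1.93 CPM in VF (log2 2.78, adjusted p = 0.039).

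Of 11 tested genes of pyrimidine nucleotides and salvage, 3 were lower and 0 higher in VF (edgeR; 0 were higher before adjustment, 0 by DESeq2 and 1 by voom) and 2 were lower and 1 higher in E12 against WT. Under the length offset 1 was lower and 1 higher in VF, and 1 was lower and 2 higher in E12. Cda, cytidine deaminase, had 0.413, 0.186 and 0.0406 CPM in VF and 27.6, 22.2 and 29.3 CPM in E12, against 3.86, 0.903 and 1.02 CPM in WT. These values rest on 11, 5 and 1 counts in the VF libraries, and the groups did not overlap. Cda was higher in E12 than in VF (log2 6.91, SE 0.92, adjusted p = 0.009) and than in WT (log2 3.79, adjusted p = 0.0064), and lower in VF than in WT (log2 −3.12, adjusted p = 0.012), the last of which the length offset did not call (log2 −0.90, adjusted p = 0.27). Nme1, a nucleoside diphosphate kinase, fell, with log2 fold changes of −3.31 in VF (adjusted p = 0.0027) and −2.59 in E12 (adjusted p = 0.0087), values made uncertain by its near-identical neighbour Nme2 and by a WT SD of 4182 CPM around 4604 CPM. With the length offset Nme1 was at −1.44 in VF (adjusted p = 0.00072) and −0.67 in E12 (adjusted p = 0.028). Uck2, a uridine-cytidine kinase, was lower in VF (log2 −0.94, adjusted p = 0.038) but at 0.51 with the length offset (adjusted p = 0.14).

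Of 12 other deoxynucleotide genes, 7 were lower and 0 higher in VF (edgeR; 0 were higher before adjustment, 0 by DESeq2 and 2 by voom) and 7 were lower and 1 higher in E12 against WT, with median log2 fold changes of −1.85 in VF and −1.25 in E12. After the length offset 5 were lower and 0 higher in VF and 4 lower and 1 higher in E12, with medians of −0.57 in VF and −0.56 in E12. Tk1, the thymidine kinase of S phase, had 81.6 ± 3.93 CPM in VF and 122 ± 22.9 CPM in E12, against 675 ± 449 CPM in WT (log2 −3.05, adjusted p = 0.0011 in VF and −2.47, adjusted p = 0.0039 in E12). With the length offset Tk1 was at −1.51 in VF (adjusted p = 0.00051) and −0.89 in E12 (adjusted p = 0.0082). Tyms, thymidylate synthase, fell too (log2 −2.84, adjusted p = 0.0024 in VF and −2.58, adjusted p = 0.0052 in E12). Nudt1, which clears oxidized purine nucleotides, was lower in VF (log2 −2.55, adjusted p = 0.0032) and in E12 (log2 −2.33, adjusted p = 0.0064), and the length offset called neither (−0.46, adjusted p = 0.1 in VF and −0.16, adjusted p = 0.58 in E12). The higher gene in E12 was Dck, deoxycytidine kinase (log2 2.10, adjusted p = 0.0098, named after its values were seen). None of these 12 genes was called in E12 against VF, where 1 was higher before adjustment and DESeq2 and voom each called 0, while the length offset called 1 higher and limma on the deposited levels 2 higher and 1 lower.

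**Figure D5:**
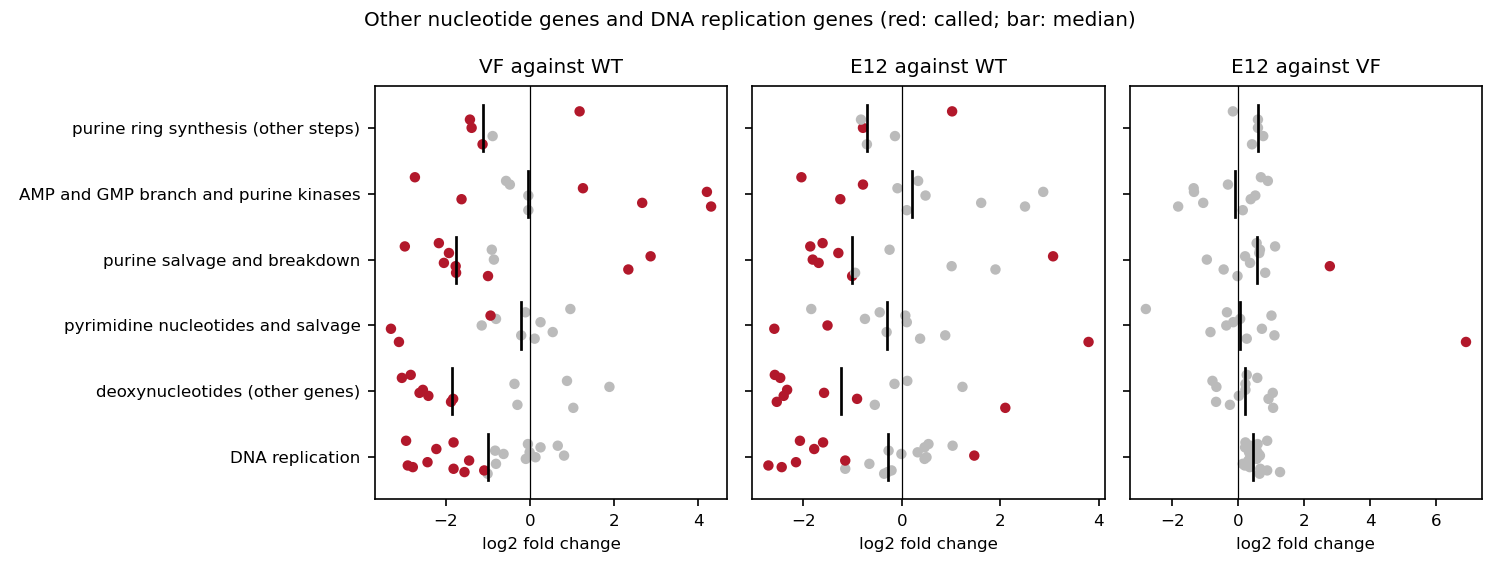
Log2 fold changes of the other genes of the nucleotide pathways and of DNA replication in the 3 comparisons, a dot per gene, red where the adjusted p was under 0.05, with a bar at the median of each list. The medians against WT were −1.85 in VF and −1.25 in E12 for deoxynucleotide genes, and −1.01 in VF and −0.29 in E12 for DNA replication genes.

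Of 8 regulators of nucleotide synthesis or cell division genes, 1 was called higher and 1 lower in VF against WT, and 2 higher and 0 lower in E12 against WT (edgeR; 0 were lower before adjustment, by DESeq2 or by voom). Of all tested genes, 27.7% were called higher and 20.9% lower in VF, and 23.9% higher and 18.1% lower in E12. The median log2 fold change of the regulators was 0.19 in VF and 0.70 in E12, against 0.36 over all genes in both. The offset gave 2 higher and 0 lower in VF, and 4 higher and 0 lower in E12. Its shares of all genes were 26.5% higher and 12.1% lower in VF, and 20.8% higher and 6.44% lower in E12. Myc averaged 502 ± 36.5 CPM in VF and 559 ± 96.0 CPM in E12, against 543 ± 394 CPM in WT, and was not called. Mycn, a Myc relative, averaged 120.4 ± 19.4 CPM in VF and 19.1 ± 0.692 CPM in E12, against 0.747 ± 0.607 CPM in WT, and was higher in VF (log2 7.26, adjusted p = 0.00025) and in E12 (log2 4.60, adjusted p = 0.0017) than in WT and lower in E12 than in VF (log2 −2.66, adjusted p = 0.043). Atf4, of the amino acid response, was lower in VF (log2 −1.24, adjusted p = 0.0048) but not called with the length offset (log2 −0.28, adjusted p = 0.28), and Rb1, which restrains E2F factors, was higher in E12 (log2 2.19, adjusted p = 0.0056).

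Across the 9 libraries, which share group, depth and scaling, the log2 CPM of Dhodh followed those of Umps and Impdh2 (r = 0.95 each) and ran against that of Impdh1 (r = −0.89). Gart followed Rrm1 (r = 0.93) and Rrm2 followed Cad (r = 0.83), while Ppat was nearest to Gart (r = 0.84) and Paics to Ppat (r = 0.74). Among all other tested genes the closest pattern was that of Mthfd2 for Cad (r = 0.978), Wdr12 for Dhodh (r = 0.996), Cox10 for Umps (r = 0.997), Mybl2 for Ppat (r = 0.974) and Tfr2 for Gart (r = 0.984). For Paics it was Apmap (r = 0.993), for Impdh1 Dcbld2 (r = 0.994), for Impdh2 Eif4a1 (r = 0.996), for Rrm1 Psmd1 (r = 0.997) and for Rrm2 Acmsd (r = 0.992). Each is a description over 9 libraries, with the best of many genes picked.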

How the data were processed

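Gene counts were deposited by the authors as whole-number read counts for 17769 genes in 9 libraries, with a gene length for each. The authors also deposited log2 expression levels, used here only as an alternative and as a second view of ratios. The submitters' processing notes name limma and STAR and the builds mm10 and GRCm38, without roles. The tool, annotation and strand setting behind the counts are not stated there. The 10 genes and the gene lists were chosen with earlier results of these data known.

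Counts were tested with edgeR 4.0.16 in R 4.3.3 after filterByExpr, which kept 13608 genes, with TMM factors and all 9 libraries in 1 quasi-likelihood fit with group as its term. P-values are two-sided, the Benjamini-Hochberg adjustment runs over all 13608 genes, and a call needs an adjusted p under 0.05. An adjusted p without a named tool is from this fit. SE is the log2 fold change divided by the root of its F statistic, and CPM use the TMM factors. Ratios were tested by exact permutation. Named genes are the 10, up to 3 called genes of each list with the smallest p per comparison, and the most correlated gene of each. Some genes that met this rule are not reported here. Fits were tested on simulated counts. Alternatives were DESeq2 1.42.0, upper-quartile or RLE scaling, 2 other filters on low counts, limma 3.58.1 with voom or on the deposited levels, fits of 2 groups, a length offset (a spline with 5 degrees of freedom), leaving out libraries, a replicate block and, chosen after seeing the data, a length and GC offset and ratios with the length offset. VF and E12 share the numbers 1 and 2, which no label ties to a shared animal or batch. Promoter sequences are from RefSeq on GRCm38.p6, and figures were drawn with matplotlib 3.10.9.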

Additional observations from a re-analysis of the deposited data

How the results depend on the processing

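Of 610 alternative values for single genes, 510 kept direction and side of the threshold, 40 lost a call, 38 gained one and 22 changed sign. All alternatives kept the calls of Dhodh and Impdh1 against WT. Calls against WT numbered 6 in VF, with 4 to 8 without a single library, and 5 in E12, with 3 to 6 without a single library and 3 each in the fit of 2 groups, with the length offset and with the length and GC offset. In E12 against VF 1 was called, with 0 to 5 without a single library, 4 by DESeq2, 2 by limma-voom, 9 in the fit of 2 groups, 2 with the length and GC offset and 6 without WT 50 and E12 5. Over all genes this comparison gave 3290 calls of 13984 without WT 50 and 2553 of 13874 without WT 50 and E12 5. It gave 924 of 13608 by limma-voom and 904 of 12774 with the length and GC offset. With the replicate block 0 were called (Cad at 1.28, adjusted p = 0.16) and 22 of all genes, against 437 without it. Deviations of same-numbered libraries correlated with r of 0.01 and 0.10, and those of unlike-numbered libraries with r of 0.02 and 0.13. So few pairs cannot show whether an animal or batch was shared.

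Signs changed in these log2 fold changes, and the cause was not tested. For VF against WT, Ppat (−0.01) became 0.05 with upper-quartile scaling, 0.07 with limma-voom, 0.72 on the deposited levels, 0.05 without VF 3 and 0.08 without WT 51. Gart became 0.62 and Rrm1 0.98 on the deposited levels, Rrm1 0.38 without WT 52, and Paics −0.29 without WT 50 and −0.26 without WT 50 and E12 5. For E12 against WT, Cad became −0.02 with the length and GC offset, Paics −0.21 without WT 50 and −0.12 without WT 50 and E12 5, and Impdh2 0.05 with the length offset and 0.22 with the length and GC offset. Rrm2 became −0.03 with RLE scaling and with DESeq2, −0.02 without a filter, −0.34 without WT 50 and −0.38 without WT 50 and E12 5. For E12 against VF, Paics became −0.00 with upper-quartile scaling and −0.06 on the deposited levels. Without a single library Ppat ran from −0.42 to 0.08, Paics from −0.29 to 0.30 and Rrm1 from −0.94 to 0.38 in VF against WT, and Paics from −0.21 to 0.39 and Rrm2 from −0.34 to 0.33 in E12 against WT.

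Ratio differences kept their sign without any single library and on the deposited levels. With the length offset, chosen for ratios after seeing the data, 2 of the 9 changed sign, Rrm2 to Rrm1 in E12 against WT at 0.07 and Paics to Ppat in E12 against WT at 0.30. Without a single library that of Impdh2 to Impdh1 ran from −3.07 to −2.81 in VF and from −2.84 to −2.61 in E12 against WT. Over all genes, E12 against VF gave 437 calls, 6412 in the fit of 2 groups, 1695 by DESeq2, 1784 on the deposited levels and 871 with the length offset, and E12 against WT gave 5717, 2967 in the fit of 2 groups and 3713 with the length offset. Of the calls against WT 57% were higher in VF and 56.9% in E12, and 68.6% and 76.4% with the length offset. The median of all genes against WT was 0.36 in both, 0.21 in VF and 0.17 in E12 with RLE scaling and 0.65 and 0.63 with limma-voom.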
